A study of Homo sapiens with 12 samples.

Results

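The genes described here are 10 transcripts that the transcription factor NF-kB is known to switch on, named as a list: the chemokines IL8 (now CXCL8), CXCL1, CXCL2, CXCL3 and CCL20, the feedback inhibitors NFKBIA and TNFAIP3, the ubiquitin ligase BIRC3, the adhesion molecule ICAM1 and the NF-kB subunit gene NFKB2. Of these 10, 7 are among the 12756 genes of the authors' deposited tables. CXCL2, CXCL3 and CCL20 are not listed there under these or any RefSeq synonym, and their levels were not analysed here.

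PolyA RNA was sequenced from HCT116, an established human colorectal carcinoma cell line, in 12 libraries harvested 48 hours after seeding. There were 3 libraries each of the parental line, of an AGO2 knockout (labelled AGO2_KO), of an ANKRD52 knockout (ANKRD52_KO), and of a double knockout of ANKRD52 and CSNK1A1 (ANKRD52;CSNK1A1_KO). AGO2 belongs to the Argonautes, which microRNAs guide to messenger RNAs. ANKRD52 serves the phosphatase PP6 as a subunit, and CSNK1A1 encodes the alpha form of casein kinase 1. By its title the study concerns a cycle of Argonaute phosphorylation in microRNA silencing, and each knockout was set against the parental line. No ligand or drug is named in the labels. Whether a knockout is 1 clone or a pool, and whether replicates were separate cultures, is not stated in the labels, so the p-values reflect the spread among these libraries alone, which may be technical.

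NF-kB dimers are held in the cytoplasm by IkB proteins such as the product of NFKBIA. Signals from receptors for tumour necrosis factor, interleukin 1 or microbial products activate the IKK kinase complex, IkB is degraded, and the freed dimers bind kB sites in promoters. The targets include secreted chemokines that draw in neutrophils and also the pathway's own brakes, so that NFKBIA and TNFAIP3 rise and limit the response. In intestinal epithelium IL8 and CXCL1 are known as early products of this response.

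The deposited files hold 1 table per knockout with a log2 fold change against the parental line, a mean log2 CPM (counts scaled to library size) over the libraries, a likelihood ratio, a p-value and an adjusted p-value. A gene was called where the edgeR adjusted p of the authors was under 0.05. No values per library were used here, so the spread between replicates enters only through that test, and an approximate standard error was rebuilt from each fold change and its likelihood ratio. The depth of the libraries is unknown.

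The targeted genes gave the following RNA levels. AGO2 had a log2 fold change of -1.07 in the AGO2 knockout (adjusted p = 0.0477), and ANKRD52 had 0.03 in the ANKRD52 knockout (adjusted p = 0.915), per the authors' deposited tables. The double knockout had -0.65 for ANKRD52 and -2.42 for CSNK1A1 in the authors' deposited table. ANKRD52 also stood at 0.85 in the AGO2 knockout by the authors' deposited table (adjusted p = 8.78e-07). The ANKRD52 RNA level thus did not tell the libraries labelled ANKRD52 knockout from the parental line, and groups are called by their labels throughout. All 5 epithelial markers checked (EPCAM, KRT8, KRT18, KRT19 and CDH1) were in the tables, at a mean log2 CPM of 7.10 to 11.18. Of 14 markers of leukocytes, endothelium and fibroblasts 4 were listed, and the defining genes PTPRC, CD3E, PECAM1, CDH5, COL1A2 and COL3A1 were not.

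The promoters of all 10 genes hold letters of the kB type close to a start site, and these are shown because the genes were grouped as NF-kB targets. The pattern searched, in the 250 bases before each RefSeq start (GRCh38.p14), was GGNNNTTCC on both strands, where N is any base, chosen after the promoters had been seen. It is a loose pattern: 20.2% of 27305 genes with a promoter entry hold it, and 25.4% of the 10064 such genes that are in the tables. Where a promoter holds several matches 1 is shown, picked after all had been seen. Capitals mark the match, 10 bases are given on each side, and each line runs 5′ to 3′ along the gene's strand.
IL8, chr4:73740468-73740496, plus strand: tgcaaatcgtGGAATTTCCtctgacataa
CXCL1, chr4:73869305-73869333, plus strand: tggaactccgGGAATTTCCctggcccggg
CXCL2, chr4:74099254-74099282, minus strand: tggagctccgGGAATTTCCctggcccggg
CXCL3, chr4:74038749-74038777, minus strand: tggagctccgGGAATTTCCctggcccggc
CCL20, chr2:227813753-227813781, plus strand: tgatcaatggGGAAAACCCcatgtggcaa
NFKBIA, chr14:35404812-35404840, minus strand: tgactggcttGGAAATTCCccgagcctga
TNFAIP3, chr6:137867194-137867222, plus strand: aaagtcccgtGGAAATCCCcgggcctaca
BIRC3, chr11:102317275-102317303, plus strand: tttgggtcatGGAAATCCCcgagtgggtt
ICAM1, chr19:10270924-10270952, plus strand: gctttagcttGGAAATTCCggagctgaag
NFKB2, chr10:102394491-102394519, plus strand: ggccgagaagGGGCTTTCCcggccctgag

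IL8 and the CXCL genes share the same 9 letters, which begin 91 bases before the start of IL8, 78 before CXCL1 and CXCL3 and 77 before CXCL2. The window of IL8 lies upstream of its gene (chr4:73740506-73743716 in GENCODE 29), as does that of CXCL1 (chr4:73869393-73871242), while those of CXCL2, CXCL3, CCL20, TNFAIP3, ICAM1 and NFKB2 fall within the gene bounds of GENCODE, which holds starts further upstream. CXCL1, CXCL2 and CXCL3 each hold a further match 53 bases before the start. NFKB2 has 3 RefSeq start windows, of which 2 hold a match. The AP-1 pattern TGANTCA, searched on both strands in the same windows, was found for IL8 alone among the 10 genes, upstream of the match shown, and in 5.89% of the genes of the tables. A match is a description of letters and not evidence of binding.

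In the double knockout the chemokine and adhesion genes rose most. IL8 was 6.74-fold and CXCL1 6.71-fold above the parental line, ICAM1 2.19-fold, BIRC3 1.88-fold and NFKBIA 1.30-fold, as linear values of the folds in the authors' deposited table. TNFAIP3 and NFKB2 were not called. In the AGO2 knockout CXCL1 rose 2.73-fold, BIRC3 1.80-fold and NFKBIA 1.36-fold by the authors' deposited table. In the ANKRD52 knockout NFKBIA rose 1.47-fold and NFKB2 fell to 0.826 of the parental level, again by the authors' deposited table.

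Of the 7 genes in the tables, 3 were called higher and 0 lower in the AGO2 knockout, where 3.38% of all 12756 genes were called higher and 2.72% lower. In the ANKRD52 knockout 1 was called higher and 1 lower, against 7.62% and 6.04% of all genes. The double knockout had 5 called higher and 0 lower, and there 22.9% of all genes were called higher and 20.1% lower. Testing only genes whose mean log2 CPM was 1 or more removed IL8 and CXCL1 and left 3 called in the double knockout. The rule by which genes were kept is not known, so these 2 weakly expressed genes may be listed only through groups where they are high. The median log2 fold change of the 7 genes was 0.44, 0.05 and 0.91 in the AGO2, ANKRD52 and double knockouts, and the medians of all genes were 0.00, 0.00 and 0.01. The 3 comparisons use the same parental libraries, so a shift in those libraries would enter all of them.

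**Figure D1:**
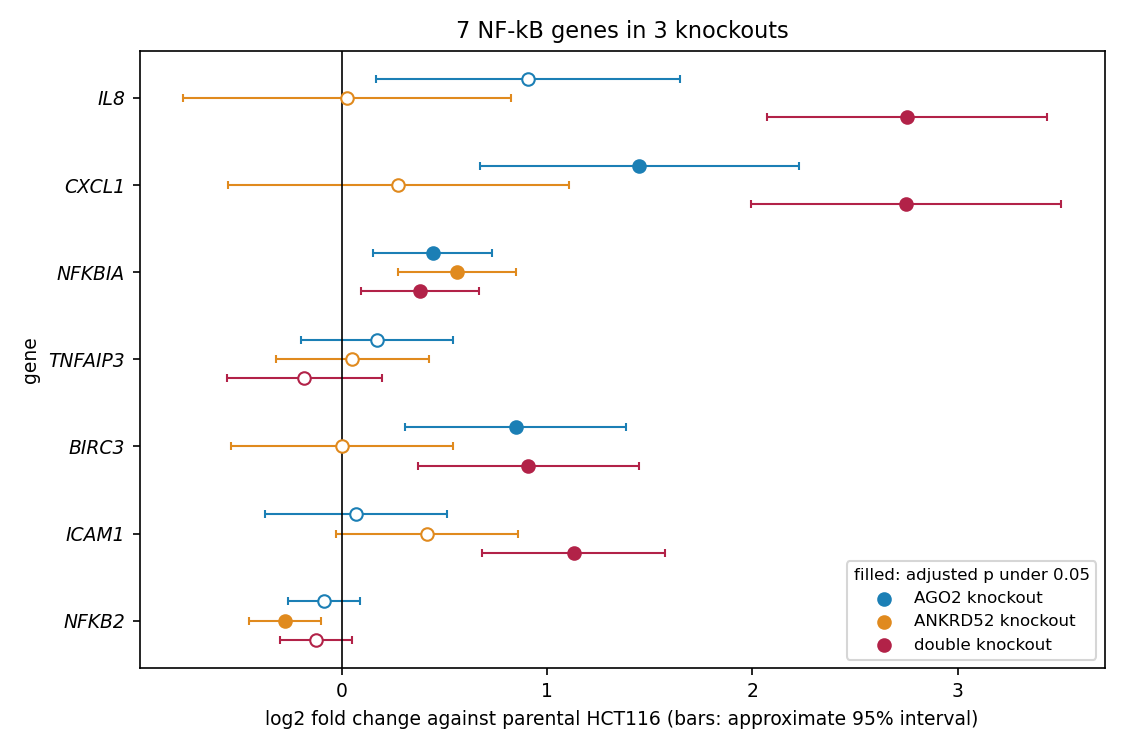
Log2 fold change against the parental line (x axis) of the 7 genes (y axis) in the AGO2 knockout (blue), the ANKRD52 knockout (orange) and the double knockout (red), with approximate 95% intervals as bars. Filled points have an adjusted p under 0.05: IL8 and CXCL1 lie near 2.75 in the double knockout, NFKBIA is filled in all 3, and TNFAIP3 in none.

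The chemokines are described first. IL8 encodes interleukin 8, the main neutrophil attractant of the CXC family. Its log2 fold change was 0.90 in the AGO2 knockout, 0.02 in the ANKRD52 knockout, then 2.75 in the double knockout in the authors' deposited tables. The approximate standard errors were 0.38, 0.41 and 0.35, and the adjusted p-values in the deposited tables of the authors were 0.130, 0.981 and 9.34e-14. Only the double knockout was called for IL8. In the AGO2 knockout the authors' deposited table has an unadjusted p of 0.0167, and the approximate 95% interval ran from 1.12-fold to 3.13-fold.

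CXCL1, also called GRO alpha, acts on the same neutrophil receptor CXCR2. It rose by 1.45 on the log2 scale in the AGO2 knockout and by 2.75 in the double knockout, with 0.27 in the ANKRD52 knockout, in the authors' deposited tables. Its approximate standard errors were 0.40, 0.39 and 0.42, and the adjusted p-values in the authors' deposited tables were 0.0112, 2.63e-11 and 0.739 in the same order. Unlike IL8, CXCL1 was thus called in the AGO2 knockout as well, and the difference between the 2 genes was not tested.

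IL8 and CXCL1 were the most weakly expressed of the 7 genes, at 0.19 and 0.36 mean log2 CPM in the authors' deposited tables. Both belong to the lowest of 10 equal bins of all genes by that mean. Among the 1276 genes of that bin, 92.3% had a smaller log2 fold change than IL8 in the double knockout, and 98.0% a smaller one than CXCL1 in the AGO2 knockout. Levels implied by the mean CPM and the 3 folds, taking the 4 groups as equal in size, were 0.428 CPM for IL8 in the parental line, 0.801 in the AGO2 knockout, 0.435 in the ANKRD52 knockout, then 2.88 in the double knockout. For CXCL1 they were 0.441, 1.20, 0.533 and 2.96 CPM. The double knockout thus held the highest level of both chemokines. For IL8 and CXCL1 the parental line and the ANKRD52 knockout did not differ beyond their error, so their order is not resolved.

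Reads of near-identical CXC genes can be assigned to the wrong member. Of the 1023 windows of 75 bases (the length of the sequencing kit) in the CXCL1 transcript of GENCODE 29, 0.293% also occur in a CXCL2 transcript. For IL8, NFKBIA, TNFAIP3, BIRC3, ICAM1 and NFKB2 that share was 0 over all GENCODE transcripts of other genes. Exact sharing was counted, without allowance for mismatches.

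NFKBIA encodes IkB alpha, the inhibitor that is degraded on activation and then made again. Its log2 fold change was 0.44 in the AGO2 knockout, 0.56 in the ANKRD52 knockout, then 0.38 in the double knockout according to the authors' deposited tables (adjusted p = 0.0472, 0.00336 and 0.0269). The approximate standard error was 0.15 in each. It was the only one of the 7 genes called in all 3 comparisons, which share the parental libraries. Implied levels were 25.0 CPM in the parental line, 34.0 and 36.9 in the AGO2 and ANKRD52 knockouts and 32.6 in the double knockout. The parental line was thus the low group, and the 3 knockouts did not differ from each other beyond their error.

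TNFAIP3 encodes A20, a ubiquitin-editing enzyme that ends signalling from tumour necrosis factor receptors. Its log2 fold changes were 0.17, 0.05 and -0.18 in the AGO2, ANKRD52 and double knockouts according to the authors' deposited tables (adjusted p = 0.651, 0.909 and 0.454). The approximate 95% intervals were -0.20 to 0.54, -0.32 to 0.42 and -0.56 to 0.19. Changes beyond about 1.46-fold upward or below 0.677 of the parental level therefore lie outside all of them. Implied levels ran from 4.65 CPM in the double knockout to 5.95 CPM in the AGO2 knockout. The intervals do not show that TNFAIP3 was unchanged.

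BIRC3 encodes cIAP2, a ubiquitin ligase that acts at the receptor complexes and blocks cell death. It rose by 0.85 in the AGO2 knockout and by 0.91 in the double knockout on the log2 scale according to the authors' deposited tables (adjusted p = 0.0398 and 0.00355). In the ANKRD52 knockout it stood at 0.00 (adjusted p = 0.999), with an approximate 95% interval of -0.54 to 0.54, from the authors' deposited table. Implied levels were 6.15 CPM in the parental line, 6.16 in the ANKRD52 knockout, 11.1 in the AGO2 knockout and 11.6 in the double knockout. By these levels, which carry no error, the groups formed 2 pairs, one near 6 and one near 11 CPM. With the likelihood ratio read against the F distribution (1 and 8 degrees of freedom), BIRC3 lost its call in the AGO2 knockout (adjusted p = 0.292). BIRC3 kept its call in the double knockout by that reading (adjusted p = 0.0403). Its approximate standard error of 0.27 was wider than that of 89.8% of genes in its expression bin when AGO2 knockout was compared.

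ICAM1 is the ligand on epithelial and endothelial cells that leukocyte integrins bind. It rose by 1.13 on the log2 scale in the double knockout (adjusted p = 6.67e-06) in the authors' deposited table. It had 0.41 in the ANKRD52 knockout (adjusted p = 0.229) and 0.07 in the AGO2 knockout (adjusted p = 0.898), per the authors' deposited tables. Implied levels were 24.0 CPM in the parental line, 25.2 in the AGO2 knockout, 32.0 in the ANKRD52 knockout, then 52.5 in the double knockout. The double knockout stood above each other group, and the other groups did not differ from each other beyond their error. The approximate standard error, 0.23 in each comparison, was wider than that of 93.2% to 93.4% of genes of like expression.

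NFKB2 encodes p100, the precursor of the p52 subunit of the alternative NF-kB pathway, and is itself an NF-kB target. In the ANKRD52 knockout it fell by 0.28 as log2 (adjusted p = 0.0214) in the authors' deposited table. In the AGO2 and double knockouts it had -0.09 and -0.13 according to the authors' deposited tables (adjusted p = 0.609 and 0.249). Implied levels were 87.5 CPM in the parental line, 82.3 in the AGO2 knockout, 80.2 in the double knockout and 72.3 in the ANKRD52 knockout. Its approximate standard error was 0.09 in each comparison, the narrowest of the 7 genes.

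**Figure D2:**
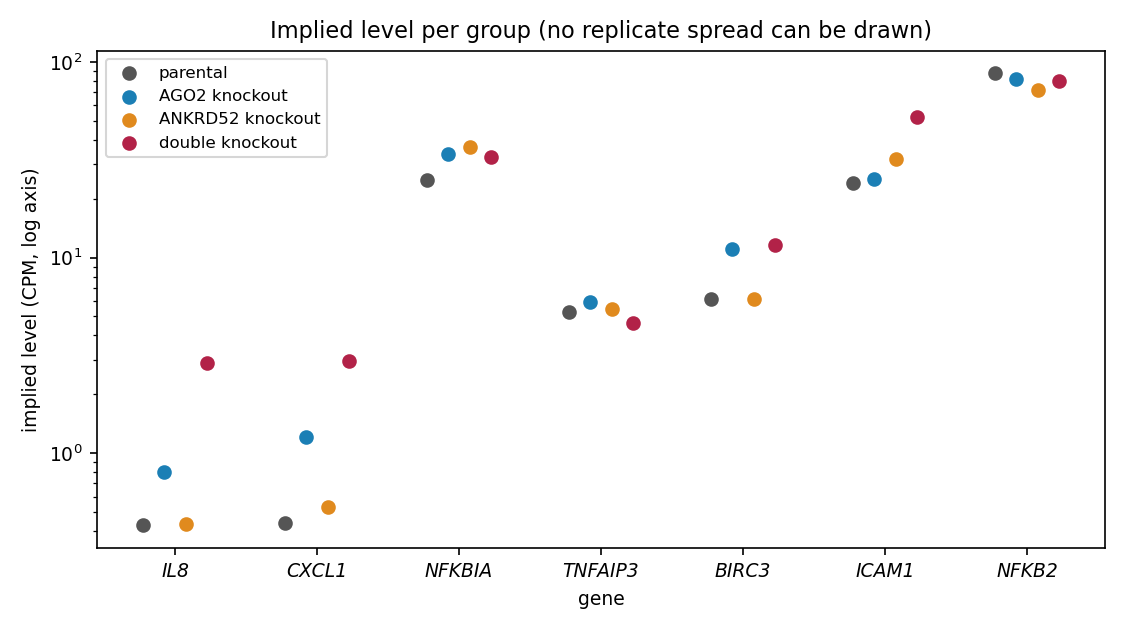
Level implied for each group in CPM (y axis, log scale) for the 7 genes (x axis), in the parental line (grey), the AGO2 knockout (blue), the ANKRD52 knockout (orange) and the double knockout (red). Points carry no error because no values per library were used: IL8 and CXCL1 run from about 0.4 CPM in the parental line to 2.88 and 2.96 in the double knockout, while NFKB2 stays between 72.3 and 87.5.

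Set per length, the 7 genes covered a wide range in the parental line. The implied level per kb of the GENCODE transcript was 28.2 CPM per kb for NFKB2, 16.1 for NFKBIA, 7.38 for ICAM1, 1.45 for BIRC3, 1.19 for TNFAIP3, 0.402 for CXCL1 and 0.251 for IL8. In the double knockout the same measure was 2.70 CPM per kb for CXCL1 and 1.69 for IL8. Even there both chemokines lay below NFKB2 at 25.9, NFKBIA at 20.9 and ICAM1 at 16.1 CPM per kb.

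**Figure D3:**
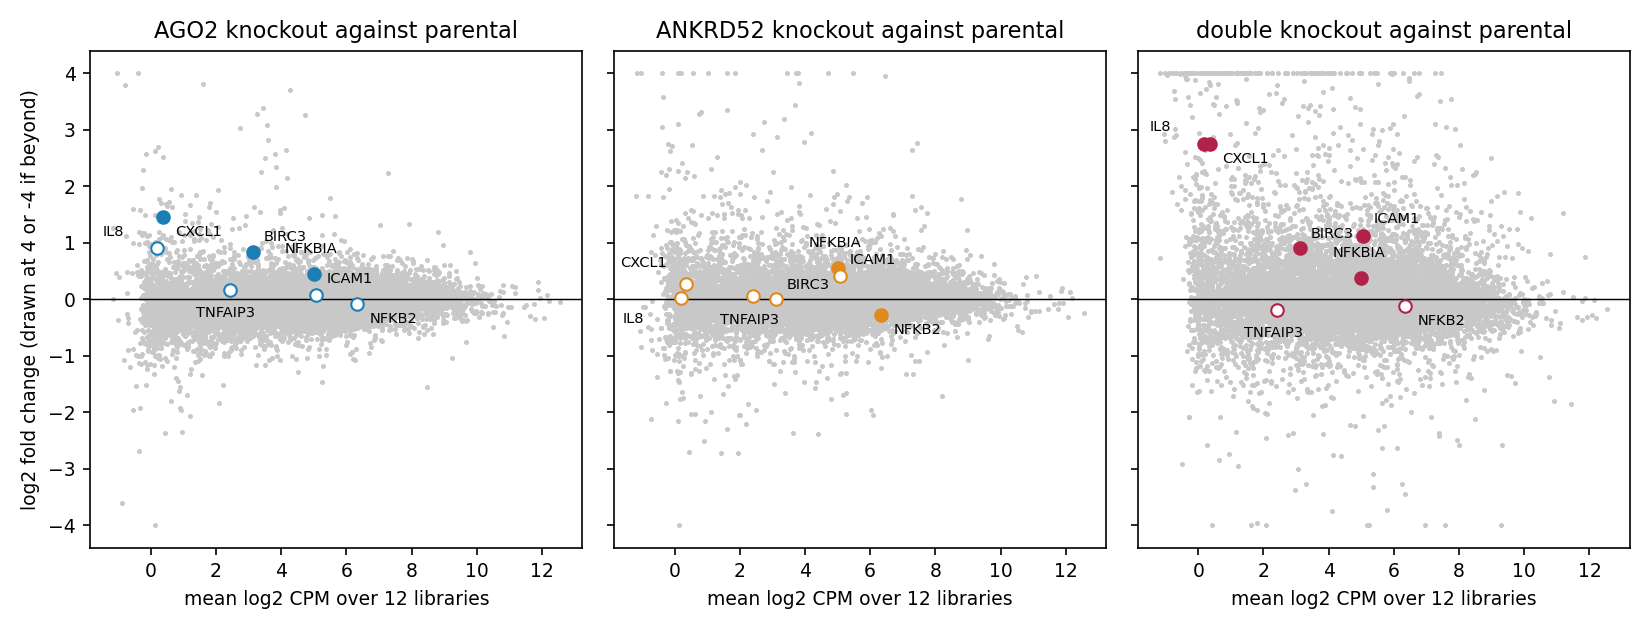
Log2 fold change (y axis) against mean log2 CPM over the 12 libraries (x axis) for all 12756 genes (grey) and the 7 genes (coloured, filled where adjusted p was under 0.05), 1 panel per knockout, with values beyond 4 drawn at 4 or -4. IL8 and CXCL1 sit at the left edge, at a mean log2 CPM of 0.19 and 0.36, where grey points spread widely.

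The knockouts were then compared with each other. The parental level drops out of the difference of 2 log2 fold changes, and an approximate normal test was run over all genes for each of the 3 pairs, with Benjamini-Hochberg adjustment. Against the ANKRD52 knockout, 4 of the 7 genes were higher in the double knockout and 0 lower, where 18.5% of 12753 genes tested were higher and 15.7% lower. By the labels this pair differs in CSNK1A1, and its groups also had unlike ANKRD52 RNA levels against the parental line (0.03 and -0.65 as log2 fold changes in the authors' deposited tables). Against the AGO2 knockout, 3 of 7 were higher in the double knockout and 0 lower, where 22.3% of all genes were higher and 20.0% lower. Between the ANKRD52 and AGO2 knockouts, 2 of 7 were lower in the ANKRD52 knockout and 0 higher, where 3.75% and 5.58% of all genes were.

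IL8 differed by 2.73 on the log2 scale between the double and the ANKRD52 knockout, a 6.62-fold difference (SE 0.38, approximate adjusted p = 1.78e-11). CXCL1 differed by 2.47 (SE 0.41, approximate adjusted p = 1.94e-08), BIRC3 by 0.91 (SE 0.28, 0.00463) and ICAM1 by 0.72 (SE 0.23, 0.00715). These 4 genes stood higher in the libraries labelled as the double knockout than in those labelled ANKRD52 knockout. NFKBIA had -0.18, with an approximate 95% interval of -0.47 to 0.11. TNFAIP3 had -0.23, with an interval of -0.61 to 0.14, and NFKB2 0.15, with -0.03 to 0.32.

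Compared with the AGO2 knockout, the double knockout was higher by 1.85 for IL8, 1.30 for CXCL1 and 1.06 for ICAM1 on the log2 scale (SE 0.36, 0.39 and 0.23, approximate adjusted p = 3.54e-06, 0.00353 and 2.41e-05). BIRC3 had a difference of 0.06, with an approximate 95% interval of -0.48 to 0.60. For NFKBIA the interval was -0.35 to 0.23, for TNFAIP3 -0.73 to 0.02 and for NFKB2 -0.21 to 0.14. In the ANKRD52 knockout CXCL1 lay below the AGO2 knockout by 1.18 (a difference of -1.18, SE 0.41, approximate adjusted p = 0.0469) and BIRC3 by 0.84 (-0.84, SE 0.28, 0.0302). IL8 had -0.88 with an adjusted p of 0.143, which was not called. With the variance taken as the sum of both squared errors, neither gene was called in this last pair. Under the same variance BIRC3 and ICAM1 lost their call between the double and the ANKRD52 knockout, and CXCL1 lost its call between the double and the AGO2 knockout.

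**Figure D4:**
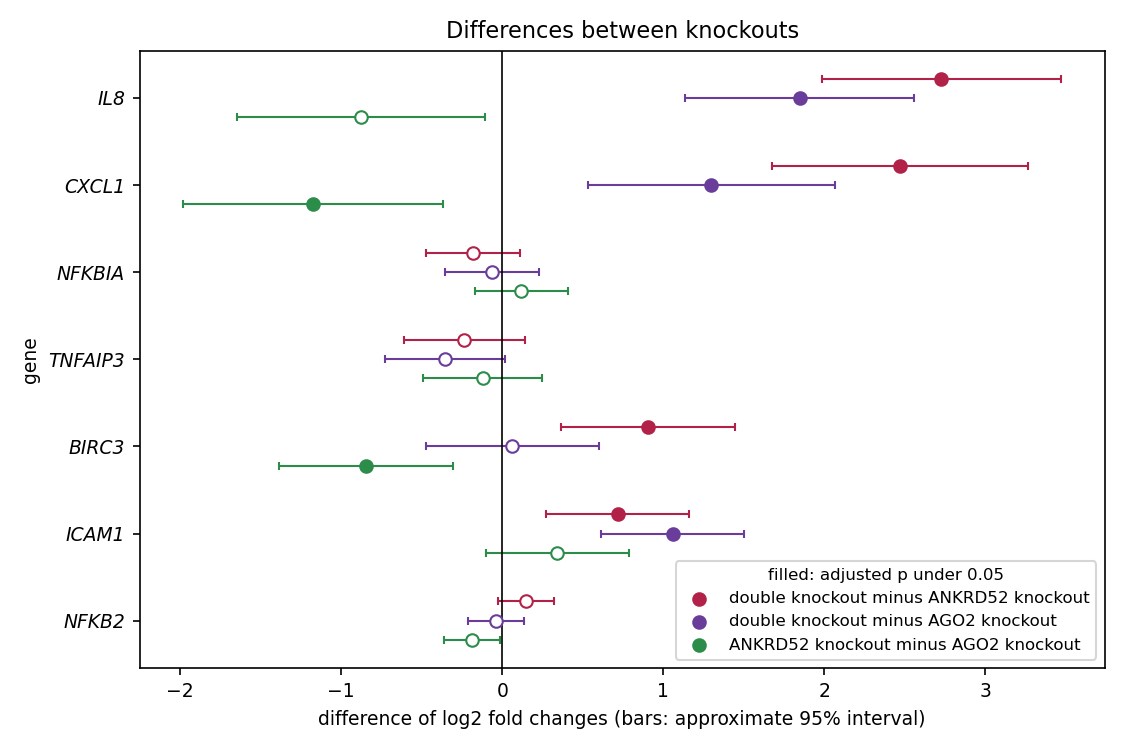
Difference of the log2 fold changes (x axis) for the 7 genes (y axis) between the double and the ANKRD52 knockout (red), the double and the AGO2 knockout (purple) and the ANKRD52 and the AGO2 knockout (green), with approximate 95% intervals. Filled points have an adjusted p under 0.05: the red points of IL8 and CXCL1 lie at 2.73 and 2.47, and the red intervals of NFKBIA, TNFAIP3 and NFKB2 include 0.

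The reading of the likelihood ratio bears on the calls with modest p. Read against the F distribution (1 and 8 degrees of freedom), 0 of the 7 genes were called in the AGO2 knockout and 0 in the ANKRD52 knockout, where 0 and 3 of all genes were. At an unadjusted p under 0.05 by the same reading, 4 and 2 of the 7 genes passed, where 14.4% and 19.4% of all genes did. In the double knockout IL8, CXCL1, ICAM1 and BIRC3 kept their calls and NFKBIA lost its own. Centring the AGO2 comparison on genes whose mean log2 CPM was 5 or more ended the calls of NFKBIA and BIRC3 there.

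Genes upstream of these targets were counted from lists of the pathway, to be read against the shares of all genes. Those were 3.38% higher and 2.72% lower in the AGO2 knockout, and 7.62% and 6.04% in the ANKRD52 knockout. In the double knockout 22.9% of all genes were higher and 20.1% lower. Of 15 genes for NF-kB subunits, IkB proteins and IKK kinases, 0 were called in the AGO2 knockout by edgeR, 2 rose and 1 fell in the ANKRD52 knockout, and 2 rose and 3 fell in the double knockout (13.3% and 20.0%). Their median log2 fold changes were 0.11, 0.06 and 0.01. In the double knockout NFKB1, which encodes the p105 precursor of p50, fell by 0.78 (adjusted p = 2.78e-09) in the authors' deposited table. NFKBIZ, an atypical IkB protein that acts in the nucleus, rose by 0.89 (adjusted p = 1.03e-06), and the IKK-related kinase IKBKE by 0.63 (adjusted p = 0.000132), in the authors' deposited table. IKBKE also rose in the ANKRD52 knockout, by 0.76, beside IKBKB, the catalytic IKK beta, at 0.51, while the IkB beta gene NFKBIB stood at -0.37 in the authors' deposited table. RELA, the main activating subunit, had 0.16, 0.10 and 0.05 according to the authors' deposited tables (adjusted p = 0.175, 0.399 and 0.590). NFKBIE and NFKBID, further IkB genes, had 0.01 and -0.20 in the double knockout according to the authors' deposited table (adjusted p = 0.952 and 0.402).

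Of 24 signal adaptors and ubiquitin enzymes between the receptors and IKK, edgeR called 0 in the AGO2 knockout, 2 higher in the ANKRD52 knockout, and 7 higher and 5 lower in the double knockout, with medians of -0.02, 0.00 and -0.05. In the double knockout that is 29.2% higher and 20.8% lower, near the shares of all genes. MYD88, the adaptor of interleukin 1 and Toll-like receptors, rose by 0.58 in the ANKRD52 knockout, then 0.89 in the double knockout according to the authors' deposited tables (adjusted p = 0.00162 and 1.49e-08). CYLD, a deubiquitinase that restrains the pathway, rose by 0.45 in the ANKRD52 knockout in the authors' deposited table. TAB1 and TAB2, partners of the kinase TAK1, stood at -0.54 and -0.50 in the double knockout, both called lower, in the authors' deposited table. BIRC2, the neighbour and close relative of BIRC3, rose by 0.36 in the double knockout (0.00196 as adjusted p) in the authors' deposited table.

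Ligands and receptors that activate NF-kB were in the tables for 19 of 28 genes, and the cytokine genes TNF, LTA, LTB, IL1A and IL1B were not listed. Of the 19, 3 (15.8%) rose in the AGO2 knockout and 2 (10.5%) in the ANKRD52 knockout, with 0 lower in each. Of all genes 3.38% and 7.62% were called higher there. In the double knockout 10 rose and 2 fell, or 52.6% and 10.5% of the list, with a median of 0.52. The largest of these rises by p were TNFRSF1B, the second receptor of tumour necrosis factor, at 5.44 (SE 0.42), and the ligand TNFSF15 at 4.90 (SE 0.36), in the authors' deposited table with approximate errors. Their mean log2 CPM was 1.36 and 0.49, so these rises start from low parental levels. The rule by which genes were kept is not known, and such genes may be listed only through the group where they are high. The share of 52.6% may be raised by this, which was not tested. TNFRSF10B, a death receptor for TRAIL, rose by 0.45 in the AGO2 knockout and 0.80 in the double knockout in the authors' deposited tables. The RNA sensor TLR3 rose by 1.93, 1.50 and 1.56 in the AGO2, ANKRD52 and double knockouts in the authors' deposited tables. TNFRSF12A, the receptor of TWEAK, rose by 0.66 in the AGO2 knockout and IL1R1, the interleukin 1 receptor, by 0.40 in the ANKRD52 knockout, in the authors' deposited tables.

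A further list held 32 other genes known as NF-kB targets, of which 18 were in the tables. Of these, 3 (16.7%) rose in the AGO2 knockout, 1 (5.56%) in the ANKRD52 knockout, then 8 (44.4%) in the double knockout. Of all genes 3.38%, 7.62% and 22.9% were called higher in the same order. As the rule by which genes were kept is not known, some of the 18 may be listed only through a group where they are high. In each knockout 0 of the 18 were lower, and the medians were 0.34, 0.14 and 0.35. The survival gene BCL2L1 rose by 0.59 in the AGO2 knockout and 1.07 in the double knockout in the authors' deposited tables. LCN2, an iron-binding antimicrobial protein, rose by 8.11 in the double knockout (SE 1.31, adjusted p = 9.43e-09), and the proteoglycan SDC4 by 1.17, per the authors' deposited table. At the mean log2 CPM of LCN2, 3.60, a rise of 8.11 starts from a low parental level. PLAU, the urokinase gene, and CFLAR, an inhibitor of caspase 8, rose by 0.75 and 0.56 in the AGO2 knockout, and the macrophage growth factor CSF1 by 0.87 in the ANKRD52 knockout, then 0.74 in the double knockout, in the authors' deposited tables. TNFAIP2, named for its induction by tumour necrosis factor as TNFAIP3 is, rose by 0.67 in the double knockout (adjusted p = 0.00236), and TNFAIP8 had 0.31 (adjusted p = 0.0568), per the authors' deposited table. Of the 18, 10 were not called in the double knockout. Among them were SOD2 at 0.00 (adjusted p = 0.981) and IRF1 at 0.06 (adjusted p = 0.828) per the authors' deposited table. SOD2 and IRF1 were picked after their values were seen.

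Of 29 other chemokine and chemokine receptor genes only CXCL16 and CXCR4 were in the tables. CXCL16, a membrane-bound chemokine, stood at -0.28 in the double knockout (adjusted p = 0.0363), and CXCR4 rose by 1.99 in the ANKRD52 knockout (SE 0.69, adjusted p = 0.0329), in the authors' deposited tables.

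**Figure D5:**
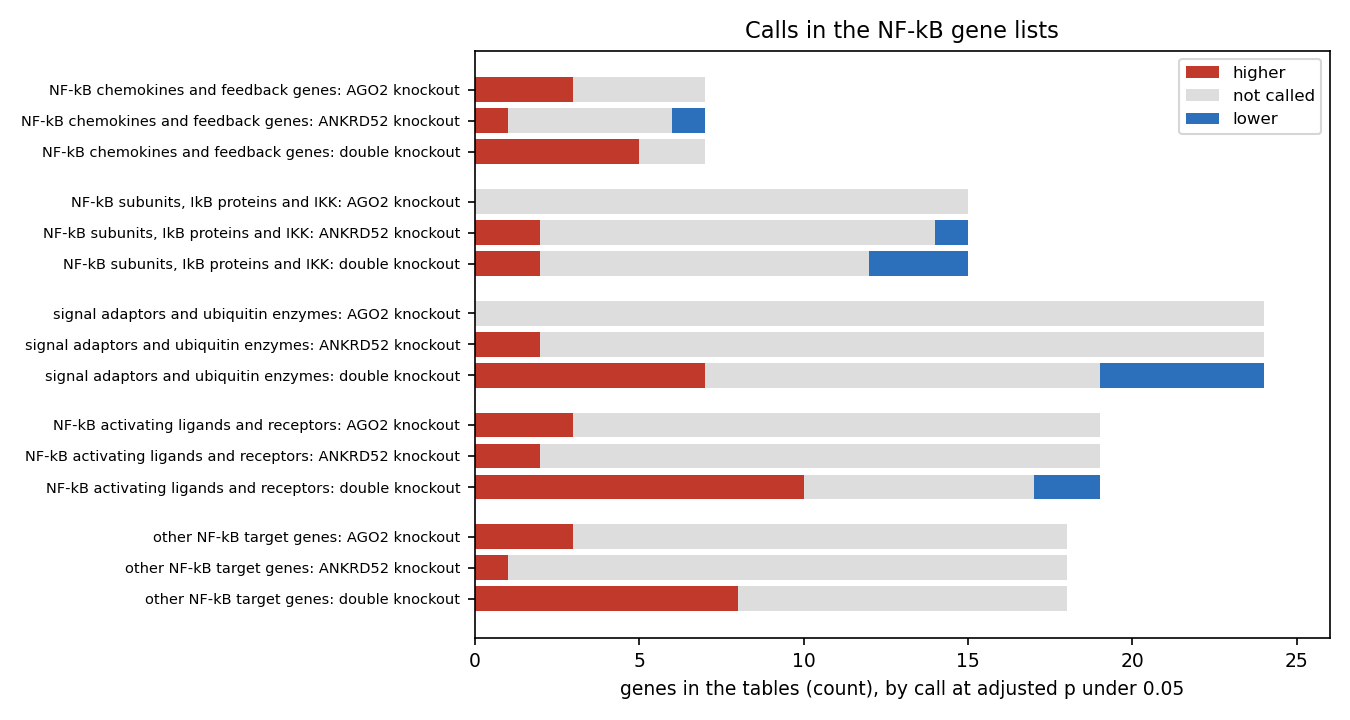
Number of genes in the tables (x axis) that were called higher (red), lower (blue) or not called (grey) at an adjusted p under 0.05, for each list drawn and each knockout (y axis). The other chemokine and chemokine receptor genes and the cell markers are not drawn. Among the 18 other NF-kB targets 8 were called higher in the double knockout and 0 lower, while 7 of the 24 signal adaptors were higher and 5 lower. Of all genes 22.9% were higher and 20.1% lower in the double knockout.

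Markers of other cells went in unlike directions in the double knockout. Of 6 leukocyte markers 2 were listed: LYZ rose by 6.77 and CD68 stood at -1.96, both called, in the authors' deposited table. The mean log2 CPM was 1.21 for LYZ and 1.80 for CD68. The summed implied level of LYZ and CD68 was 4.26 CPM in the parental line and 9.70 in the double knockout, with 6.57 in the AGO2 and 2.65 in the ANKRD52 knockout. The endothelial marker VWF, 1 of 3 listed, rose by 2.25, and the fibroblast marker COL1A1, 1 of 5 listed, had 0.24 (adjusted p = 0.281), per the authors' deposited table. Their implied levels went from 0.530 to 2.53 CPM and from 11.9 to 14.1 CPM between the parental line and the double knockout. Epithelial markers KRT8, KRT18, KRT19 and CDH1 rose in the double knockout by 1.53, 1.55, 1.24 and 1.45, and EPCAM had 0.13 (adjusted p = 0.596), in the same authors' deposited table. In the ANKRD52 knockout EPCAM stood at -0.81 and CDH1 at -1.33, both called lower (adjusted p = 0.000545 and 0.0195), by the authors' deposited table. The part of these shifts in the chemokine levels was not tested. In bulk RNA, more cells of a kind and more RNA per cell cannot be told apart.

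The genes whose 3 fold changes lay nearest to those of IL8, which had the smallest adjusted p of the 7 genes, were SYTL2, UNC13D, IFRD1, THBS1 and DSC3. They were ranked by Euclidean distance over the 3 comparisons among the 11789 genes outside all lists whose mean log2 CPM was 1 or more, and the distances ran from 0.39 to 0.55. SYTL2, a regulator of vesicle docking, had 0.55, -0.01 and 2.91 in the AGO2, ANKRD52 and double knockouts in the authors' deposited tables. THBS1, the matrix protein thrombospondin 1, had 0.47, 0.25 and 2.93 in the authors' deposited tables.

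The 3' untranslated regions were examined because AGO2 acts there through microRNAs, and because chemokine messages are known for AU-rich elements that shorten their lives. The pentamer ATTTA, the core of such elements, occurred 9 times in the 1252 bases of IL8 and 5 times in the 706 bases of CXCL1 (GENCODE 29, transcript with the longest coding sequence). That is 7.19 and 7.08 per kb, against a median of 1.55 per kb and a 90th percentile of 4.89 over 12065 genes of the tables. Of the 10 listed genes 8 lay above that percentile, including CXCL2 at 13.9 and CXCL3 at 10.4 per kb. CXCL2, CXCL3 and CCL20, all among the 8, have no fold change here. Of the 7 genes that have fold changes, 5 lay above the percentile. BIRC3 had 12 copies in 2301 bases and NFKBIA 3 in 502, while ICAM1 had 2 in 1328 and TNFAIP3 5 in 1993. For NFKB2 the region is 148 bases long and holds 1 copy, which alone puts it above the percentile at 6.76 per kb. Copies are counted as letters and were not tested against the fold changes.

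Sites for 7 microRNAs were also looked for, as matches to bases 2 to 8, the seed, which pairs with the target. This set, like the pentamer, was chosen with the fold changes known. The microRNAs were let-7a-5p, miR-17-5p, miR-19b-3p, miR-200b-3p, miR-21-5p, miR-16-5p and miR-146a-5p, and their levels in these cells were not analysed here. The mature sequences of those with a match in one of the 7 genes are shown, from RefSeq (GRCh38.p14), with the seed in capitals.
hsa-let-7a-5p: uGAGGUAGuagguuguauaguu
hsa-miR-17-5p: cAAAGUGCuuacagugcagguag
hsa-miR-19b-3p: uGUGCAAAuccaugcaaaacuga
hsa-miR-21-5p: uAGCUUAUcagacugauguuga

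The matches in the 3' untranslated regions are given with up to 10 bases on each side, as DNA letters of GENCODE 29 (GRCh38), and capitals mark the 7 letters that pair with the seed.
IL8, miR-17-5p: acatgtggaaGCACTTTaagttttttc
BIRC3, miR-19b-3p: aggcacccttTTTGCACcatgtgtttt
TNFAIP3, miR-19b-3p: gtatttgaaaTTTGCACatttaattgt
TNFAIP3, let-7a-5p: tctgagtgtcCTACCTCcttggagatg
TNFAIP3, miR-21-5p: gagaggaaagATAAGCTcttcgtggtg

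Such matches are common, in 22.0% of 12065 genes for miR-17-5p, 13.6% for miR-19b-3p, 9.80% for let-7a-5p and 8.32% for miR-21-5p. CXCL1, NFKBIA, ICAM1 and NFKB2 held none for the 7 microRNAs in the transcript used. Of the 4 genes without a match, CXCL1 and NFKBIA were called higher in the AGO2 knockout and ICAM1 and NFKB2 were not called. Of the 3 with a match, BIRC3 was called higher there, and IL8 and TNFAIP3 were not called. Of all genes 3.38% were called higher in the AGO2 knockout, and the split by match was not tested. No match says only that these letters are not in that stretch.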

How the data were processed

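The deposited files are 3 tables of edgeR output, 1 per knockout against parental, per the file headers. The log2 fold change and mean log2 CPM were computed by the authors, as were the likelihood ratio, which is a score, and the p-value with its adjusted value. Per the submitters' processing notes the tools were edgeR 3.8.6, featureCounts 1.4.6 and TopHat2 2.0.12 and the build hg19, with no role given. Each deposited p-value was checked against the upper chi-square tail (1 degree of freedom) of its likelihood ratio, and the adjusted ones against Benjamini-Hochberg adjustment of all 12756 genes. Both matched. No counts per library were used, so the count tests named in the design did not apply and depth is unknown.

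An approximate standard error was obtained by dividing the size of a log2 fold change by the root of its likelihood ratio. Between knockouts, the variance of the difference was the mean of both squared errors, which takes the groups as equally variable. Implied levels assume 4 equal groups. Named were the 7 genes, the targeted genes, up to 3 called genes with the smallest adjusted p per list and comparison, list genes sharing a symbol stem with the 7, and the 5 nearest to the one with the smallest adjusted p. RELA, SOD2, IRF1 and the markers were named in addition, chosen after their values were seen. The genes and lists were chosen with earlier results of these data known, and the pathway lists share no gene with the 7. Gene positions and sequences are from RefSeq GRCh38.p14 and GENCODE 29 (GRCh38), which differ from the authors' build, and were matched by symbol or synonym: 12065 of 12756 genes had a coding transcript. Calculations used pandas 2.3.3, scipy 1.17.1 and numpy 2.4.6 in Python 3.11.15, with figures from matplotlib 3.10.9.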

Additional observations from a re-analysis of the deposited data

How the results depend on the processing

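Of 219 values of single genes under the alternatives, 191 kept their direction and their side of the threshold and 27 kept their direction and lost their call. The other value, BIRC3 in the ANKRD52 knockout, was called under neither setting and changed sign, from 0.00081 to -0.0094 when centred on genes whose mean log2 CPM was 5 or more. The 191 include values that had no call to lose, so the share of calls lost is larger than 27 of 219. IL8 and CXCL1 are not counted where only genes with a mean log2 CPM of 1 or more were tested. An adjusted p under 0.01 left 0 genes called in the AGO2 knockout, 1 in the ANKRD52 knockout and 0 between the ANKRD52 and AGO2 knockouts. The F distribution left 0 in the AGO2 and 0 in the ANKRD52 knockout. Asking for an absolute log2 fold change of at least 0.5 left 1 in the ANKRD52 knockout. Centring on genes whose mean log2 CPM was 5 or more, and whose median was 0.03 in the AGO2 knockout, left 1 there (CXCL1). Testing only genes whose mean log2 CPM was 1 or more removes IL8 and CXCL1, and left 3 in the double knockout, 2 between the double and ANKRD52 knockouts, 1 between the double and AGO2 knockouts and 1 between the ANKRD52 and AGO2 knockouts. Taking the sum of both squared errors as the variance left 2 between the double and ANKRD52 knockouts and 0 between the ANKRD52 and AGO2 knockouts, and so did a t distribution with 8 degrees of freedom (2 and 0). Over all genes, an adjusted p under 0.01 called 274, 874 and 4053 genes in the AGO2, ANKRD52 and double knockouts, against 778, 1742 and 5486, and the F distribution called 0, 3 and 3784, with 1834, 2473 and 5459 at an unadjusted p under 0.05. The cause of these losses beyond each alternative's construction was not tested.

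No paired analysis was possible because the files hold no values per library. For the same reason leaving out each replicate was not run, no outlying library was looked for, and the depth behind IL8 and CXCL1, the lowest of the 7 genes, is unknown.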
